A study of Mus musculus with 8 samples.

Results

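Il19, Il10 and 8 genes around them on mouse chromosome 1 were followed in macrophages grouped by an Il19 reporter. The 10 genes were Cd55, Yod1, Fcmr, Il19, Il10, Mapkapk2, Dyrk3, Rassf5, Ikbke and Srgap2, in the order of their positions, and they were found by symbol among the 17823 genes of the deposited counts table. The cells were bone-marrow-derived macrophages of C57BL/6 mice. They were grown over 7 days with recombinant M-CSF (20 ng), and LPS, a lipopolysaccharide from Escherichia coli O111:B4, was used at 1 µg/ml. LPS signals through Toll-like receptor 4. The groups were Il19-tdT positive and Il19-tdT negative cells, with 4 libraries each, labelled as biological replicates 1 to 4, and both groups had the same culture and LPS treatment. The construction of the reporter, the duration of LPS treatment, the way positive and negative cells were separated, and the age and sex of the mice are not stated in the labels.

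The Il10 gene neighbourhood holds 4 cytokine genes of a single family, Il10, Il19, Il20 and Il24. IL-10 is the main cytokine by which macrophages restrain inflammation. It signals through a receptor of IL-10RA and IL-10RB to the kinases JAK1 and TYK2 and the transcription factor STAT3. IL-19 uses a different receptor, of IL-20RA and IL-20RB, which is found mostly on epithelial cells. In macrophages exposed to LPS, transcription factors of the NF-kB, AP-1, C/EBP and STAT families act on cytokine genes, and the kinase MK2, which Mapkapk2 encodes, acts downstream of p38 to keep cytokine messenger RNAs stable.

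In brief, Il19 was 15.4-fold higher in the tdT-positive libraries, as the definition of the groups requires. Fcmr, with very few counts, was 4.68-fold higher, and Il10 was 2.12-fold higher in the fit that takes the replicate number into account. In that same fit Yod1, Ikbke and Srgap2 were 1.19-fold to 1.40-fold higher, and Cd55 was lower, at 0.727 of its tdT-negative level. Mapkapk2, Dyrk3 and Rassf5 did not pass a test in either fit. In the main edgeR fit, without the replicate number, Il19 was the only one of the 10 genes to pass. Fcmr also passed in 3 other fits without the replicate number (DESeq2, no filter on low counts, and without tdT-negative replicate 1). Where the filter was used, Fcmr met it through its tdT-positive libraries only, so a gene of its level had to differ in order to be tested.

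The libraries held between 49850537 and 58516454 counts over genes, and 3 counts corresponded to 0.0490 to 0.0696 CPM, the count relative to library size after scaling by the trimmed mean of M values (TMM). Rn45s, a ribosomal RNA precursor gene, took 12.3% of the counts of tdT-positive replicate 3, which also had the lowest total and the lowest TMM factor (0.865), whereas Fth1 was the most counted gene in the other 7 libraries. All 8 macrophage markers looked up, among them Adgre1, Csf1r and Cd68, were detected, and summed to between 14229 and 18467 CPM in the tdT-positive group, against 11999 to 21521 CPM. In the same order of groups, the sum was 60.4 to 147 and 249 to 2234 CPM for 10 stromal markers, 85.9 to 156 and 199.97 to 369.9 CPM for 6 monocyte markers, 5.26 to 9.74 and 20.4 to 33.7 CPM for 6 dendritic cell markers, and 105 to 235 and 86.2 to 411 CPM for 8 neutrophil markers. The stromal, monocyte and dendritic cell sums were higher in every tdT-negative library than in any tdT-positive one. Most of the dendritic cell sum came from Fscn1, with means of 6.90 and 25.7 CPM, followed by Ccr7 with 0.645 and 2.15 CPM. Flt3, Xcr1, Siglech and Zbtb46 had 4, 23, 2 and 17 counts over the tdT-positive and 7, 26, 8 and 44 over the tdT-negative libraries. The neutrophil sums overlapped through Csf3r (means of 171 and 137 CPM). Camp, from the same list, also overlapped between the groups (means of 3.21 and 7.56 CPM). S100a9 (0.713 and 102 CPM), Ngp (0.473 and 39.7 CPM) and Ltf (0.196 and 13.5 CPM) did not overlap. These genes were higher in every tdT-negative library than in any tdT-positive one. Their part and that of the other markers in the differences between groups was not tested. In bulk RNA, fewer cells of a type and less RNA per cell cannot be told apart.

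The bases before the start sites of 9 of the 10 genes were read from RefSeq for build GRCm38.p6. The gene left out was Il10, for which no such sequence was at hand, so its window was not searched. All 10 genes lie on chromosome 1. Sequences of 250 bases are shown, 5′ to 3′ on the strand of the gene, for Il19, whose reporter defines the groups, for Fcmr, which had the next largest difference, and for Cd55, which was lower in tdT-positive libraries. Capitals mark matches to 6 short motifs on either strand. The motifs searched were the kappaB motif, AP-1 (TGANTCA), the short form of the cAMP response element (TGACG), C/EBP (TTNNGNAA), STAT (TTCNNNGAA) and IRF (GAAA, 2 bases of any kind, GAAA). The Il19 window is chr1:130940116-130940365 on the minus strand, the Fcmr window chr1:130865527-130865776 on the plus strand and the Cd55 window chr1:130462745-130462994 on the minus strand.
Il19: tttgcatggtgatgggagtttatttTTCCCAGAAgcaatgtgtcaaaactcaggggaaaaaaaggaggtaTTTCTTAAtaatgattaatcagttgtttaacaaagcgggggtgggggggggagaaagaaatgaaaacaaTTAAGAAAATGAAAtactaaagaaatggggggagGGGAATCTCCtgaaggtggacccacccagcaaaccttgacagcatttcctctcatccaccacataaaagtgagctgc
Fcmr: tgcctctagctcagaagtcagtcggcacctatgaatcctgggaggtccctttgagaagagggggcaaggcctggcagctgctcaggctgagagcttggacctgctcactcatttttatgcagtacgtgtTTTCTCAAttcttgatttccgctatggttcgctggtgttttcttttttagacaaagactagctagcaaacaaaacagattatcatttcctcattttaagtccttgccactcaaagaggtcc
Cd55: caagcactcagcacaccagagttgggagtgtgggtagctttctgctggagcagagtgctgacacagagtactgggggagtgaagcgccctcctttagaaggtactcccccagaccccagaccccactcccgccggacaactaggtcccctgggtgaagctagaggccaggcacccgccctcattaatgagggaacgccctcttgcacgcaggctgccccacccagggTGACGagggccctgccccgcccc

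The Il19 window held a STAT match at position -225 relative to the start, which reads as STAT on both strands, C/EBP matches at -180 and -111, an IRF match at -107 that overlaps the C/EBP match before it, and a kappaB match at -77. Il19 was the only one of the 9 genes searched with a kappaB, STAT or IRF match in its window, and Il10 was not among the 9. Of 32851 RefSeq windows of the same length, 3.90% held a kappaB match, 7.02% a STAT match and 2.98% an IRF match. C/EBP matches stood before 5 of the 9 genes, including Fcmr, and before 36.8% of all starts. Cd55 had a match to the short cAMP response element at position -23, as did Srgap2 at -120 and -59, and such matches stood before 17.8% of all starts. Yod1 had an AP-1 match at -240, found in 6.75% of windows. The annotated span of Il19 runs to position 130945457, beyond the start used here, so the window lies inside that span, as do the windows of Cd55 and Rassf5 in theirs. A match describes letters in these windows and says nothing about binding.

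Il19 (Entrez 329244, minus strand, positions 130932656 to 130945457 of GRCm38) was described first, since it checks the labels. It was at 183, 145, 177 and 234 CPM in tdT-positive replicates 1 to 4 and at 10.4, 9.17, 17.0 and 11.3 CPM in tdT-negative replicates 1 to 4. Every tdT-positive library lay far above every tdT-negative one, so the transcript followed the label in all 8 libraries. The ratio within a replicate number was 17.6, 15.9, 10.4 and 20.7 for numbers 1 to 4, lowest in number 3, whose tdT-negative library had the most Il19 of its group. The log2 fold change was 3.95 (SE 0.23, edgeR quasi-likelihood test, adjusted p = 0.000594). In the tdT-negative libraries Il19 transcript was above the level of 3 counts throughout, with between 546 and 943 counts.

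Il20 and Il24, the family members nearest to Il19, were close to undetected. Il20 lies 21.4 kb and Il24 45.2 kb from Il19, towards Fcmr. Il20 had 9 counts over the tdT-positive and 3 over the tdT-negative libraries, a ratio of 3.19 with an exact 95% interval of 0.796 to 18.3 that covers counting error only. Il24 had 2 and 0 counts, both under the 3 counts taken as a floor, so no fold is given. Among the cytokine genes of this stretch, Il19 and Il10 were thus the 2 with transcript well above that floor. Il22, Iltifb, Ifnl2 and Ifnl3, other members of the wider family, were not in the counts table.

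Il10 (Entrez 16153, plus strand, 131019845 to 131024970), the gene of the cytokine described above, lies 74.4 kb from Il19. It was at 103, 71.6, 36.1 and 109.7 CPM in tdT-positive replicates 1 to 4 and at 50.9, 40.1, 17.0 and 41.3 CPM in tdT-negative replicates 1 to 4. The groups overlapped, because the libraries numbered 3 were low in both groups: tdT-positive replicate 3 lay below 3 of the 4 tdT-negative libraries. Within a replicate number Il10 was higher in the tdT-positive library in 4 of 4 numbers, by 2.01, 1.78, 2.13 and 2.66 times. The spread of Il10 between numbers, 3.04-fold in tdT-positive and 3.00-fold in tdT-negative libraries, was larger than any of these ratios.

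The call for Il10 depended on the replicate number. Without it the log2 fold change was 1.10 (SE 0.40, edgeR, adjusted p = 0.218), and an exact two-sided permutation test over 70 splits of the CPM values gave p = 0.114, with 0.0286 the smallest value possible. With the replicate number as a block, Il10 rose (log2 fold change 1.09, SE 0.09, edgeR, adjusted p = 0.00455). Its adjusted p lay between 0.000209 and 0.396 over 22 alternative settings, and with the block it passed whichever of the 4 numbers was left out (log2 fold change 0.99 to 1.16). The labels do not say what libraries with the same number have in common.

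**Figure D1:**
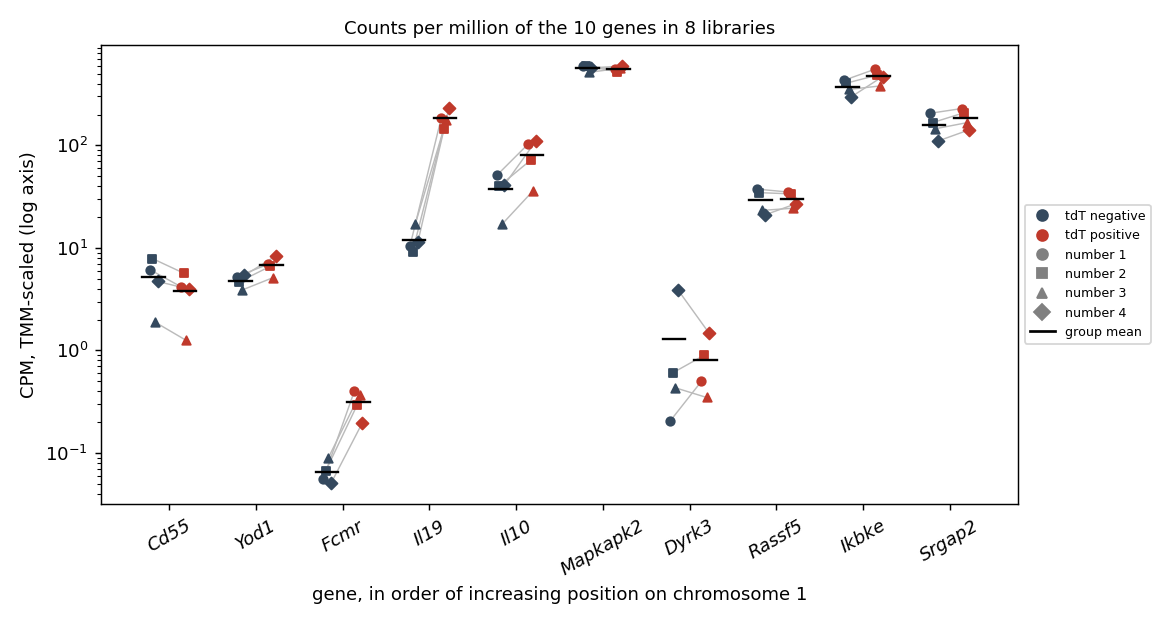
CPM after TMM scaling (log axis) of the 10 genes in the 8 libraries, with grey lines between the libraries of a replicate number and black bars for group means. Il19 and Fcmr are the genes whose groups do not overlap, Il10 is higher in every number while its groups overlap, and Dyrk3 stands out for tdT-negative replicate 4 at 3.90 CPM.

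Il10 and Il19 did not rank the libraries in the same way. Among tdT-positive libraries, replicate 4 was highest for both genes (234 CPM of Il19, 109.7 CPM of Il10) and replicate 1 was second for both. Replicate 3, however, held 177 CPM of Il19, close to replicate 1, and the least Il10 of its group, 36.1 CPM. Among tdT-negative libraries, replicate 3 was highest for Il19 (17.0 CPM) and lowest for Il10 (17.0 CPM). The number of Il10 counts per Il19 count was 0.559, 0.493, 0.204 and 0.469 in tdT-positive replicates 1 to 4, and 4.88, 4.38, 0.999 and 3.65 in tdT-negative replicates 1 to 4. The libraries numbered 3 had the lowest value in both groups. Il19 splits the libraries into separate clusters of 4, too few for a correlation within either, so no coefficient is given for their levels.

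**Figure D2:**
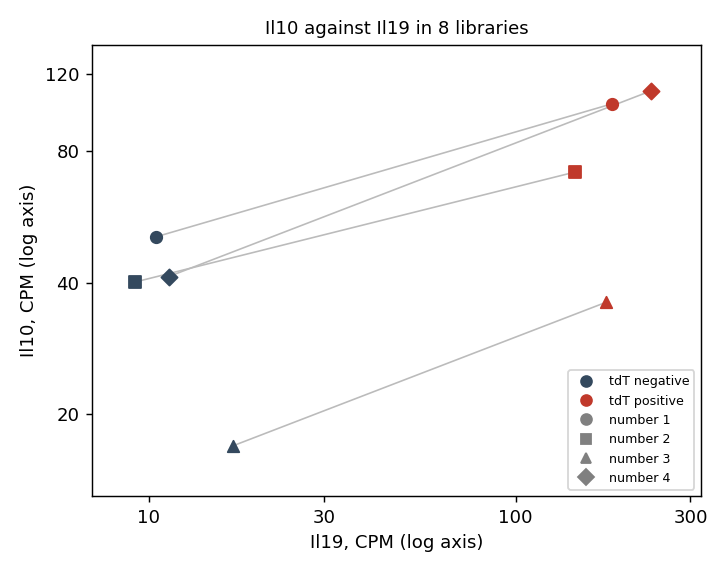
Il10 against Il19 in the 8 libraries, both as CPM on log axes, with lines joining the libraries of a replicate number. The lines of the 4 numbers all climb from tdT negative to tdT positive, and number 3 lies below the others, at 17.0 and 36.1 CPM of Il10.

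Genes that varied between libraries most like Il10 and Il19 were looked for among 9200 genes (mean log2 CPM 2 or higher), by the Pearson correlation of deviations from the group means over the 8 libraries. The genes most like Il10 were Oasl1, an interferon-induced gene of the oligoadenylate synthetase family (r = 0.993), Smox, which encodes spermine oxidase (0.993), Basp1 (0.987), Selenbp1 (0.987) and D430042O09Rik (0.987). Most like Il19 were Cstb, which encodes the protease inhibitor cystatin B (0.998), Mrpl53, a mitochondrial ribosomal protein gene (0.995), the ribosomal protein genes Rpl19 (0.984) and Rpl32 (0.978), and 2010107E04Rik (0.972). The lists shared no gene. On the same measure Il19 stood at rank 5724 of 9200 in likeness to Il10, with r = -0.32. These coefficients are a description of 8 libraries that share replicate numbers and depth, and with so many genes the highest are high by selection.

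Fcmr and Cd55 encode surface proteins. Fcmr (Entrez 69169, plus strand, 130865777 to 130880790), 51.9 kb from Il19 on the side of Il24, encodes the receptor for the Fc part of IgM and is known mainly from lymphocytes. It was at 0.403, 0.292, 0.371 and 0.196 CPM in tdT-positive replicates 1 to 4 and at 0.0558, 0.0671, 0.0900 and 0.0506 CPM in tdT-negative replicates 1 to 4. All tdT-positive libraries lay above all tdT-negative ones, but the values rest on 21, 17, 16 and 12 counts against 3, 4, 5 and 3.

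The ratio of Fcmr was 4.68 over all libraries, with an exact 95% interval of 2.64 to 8.82 for counting error, and 3.87 to 7.21 within numbers, where the lower ends of the intervals lay between 1.04 and 2.15. Its log2 fold change was 2.21 (SE 0.38, edgeR, adjusted p = 0.0562) and, with the block, 2.20 (SE 0.36, adjusted p = 0.0125), with a range of 0.00639 to 0.166 over 21 alternatives. It did not pass with the block without number 2 or number 3. Fcmr met the filter on low counts through its tdT-positive libraries only, so a gene of its level had to differ in order to be tested. Of 8 B cell markers 7 were in the table, and they summed to 0.533 to 0.882 CPM in the tdT-positive group, below the 1.40 to 2.28 CPM of the other group. Most of that gap came from Ebf1, with means of 0.0829 and 0.980 CPM, while Cd79b had means of 0.571 and 0.666 CPM and Ms4a1 had 8 and 4 counts. Of 8 T and NK cell markers 5 were in the table, with sums of 0.696 to 1.05 CPM against 0.403 to 0.596 CPM, mostly from Cd4 (means of 0.749 and 0.481 CPM), which macrophages can also express. Cd3e had 0 counts and Cd3d 1 count over the tdT-positive libraries.

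Cd55 (Entrez 13136, minus strand, 130429798 to 130465009) encodes decay-accelerating factor, which protects a cell's own surface from complement, and is the farthest of the 10 genes on the low side, 467.6 kb from Il19. It was at 4.18, 5.68, 1.25 and 3.97 CPM in tdT-positive replicates 1 to 4 and at 6.14, 7.87, 1.89 and 4.71 CPM in tdT-negative replicates 1 to 4. The groups overlapped widely, and the libraries numbered 3 were again the lowest of each group. The tdT-positive library was the lower one in 4 of 4 numbers, with ratios of 0.681, 0.721, 0.662 and 0.843. Cd55 fell by 0.46 on the log2 scale with the block (SE 0.11, edgeR, adjusted p = 0.0366), but not without it (log2 fold change -0.45, SE 0.50, adjusted p = 0.733). The adjusted p over 22 alternatives was 0.0144 to 0.928, and with the block the gene passed without number 4 and not without number 1, 2 or 3. A GENCODE antisense gene, Gm16083, overlaps an exon of Cd55, and since the strand setting of the counting is not given, their reads cannot be told apart.

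Ikbke, Mapkapk2 and Dyrk3 encode kinases, and of these Ikbke passed a test. Ikbke (Entrez 56489, minus strand, 131254600 to 131279601) encodes IKK-epsilon, a relative of TBK1 that phosphorylates interferon regulatory factors, and lies 309.1 kb from Il19 beyond Il10. It was at 552, 485, 379.9 and 469 CPM in tdT-positive replicates 1 to 4 and at 429.98, 404, 351 and 298 CPM in tdT-negative replicates 1 to 4. Replicate 3 of the tdT-positive group fell within the tdT-negative range and the other 3 lay above it. The ratios within numbers were 1.28, 1.20, 1.08 and 1.57, and that of number 3 was 0.951 when libraries were scaled by their totals alone.

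Ikbke rose with the block (log2 fold change 0.35, SE 0.09, edgeR, adjusted p = 0.0480) and did not pass without it (0.35, SE 0.16, adjusted p = 0.317), with a range of 0.0395 to 0.566 over 22 alternatives. The call was also lost with library totals and the block (adjusted p = 0.114). The exact two-sided permutation test gave p = 0.0857. GENCODE antisense genes overlap its exons, with the same limit on strand as for Cd55.

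Mapkapk2 (Entrez 17164, minus strand, 131053700 to 131097871), the MK2 gene and the nearest neighbour of Il10, was the most even of the 10 genes. It was at 550.02, 522, 564 and 594 CPM in tdT-positive and at 601, 597, 515 and 570.2 CPM in tdT-negative replicates 1 to 4. The groups covered the same range, and the ratio lay below 1 in numbers 1 and 2 (0.915 and 0.874) and above 1 in numbers 3 and 4 (1.10 and 1.04). With library totals all 4 ratios lay below 1. Its log2 fold change was -0.03 (SE 0.10, edgeR, adjusted p = 0.910), and -0.03 with the block (SE 0.08, adjusted p = 0.798), under any of 22 alternatives between -0.11 and 0.01. Mapkapk2 lies between Il10 and Dyrk3, 108.2 kb from Il19.

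Dyrk3 (Entrez 226419, minus strand, 131128441 to 131138234) encodes a kinase that controls the dissolving of stress granules. It was at 0.499, 0.895, 0.348 and 1.47 CPM in tdT-positive replicates 1 to 4 and at 0.205, 0.604, 0.432 and 3.90 CPM in tdT-negative replicates 1 to 4. Its within-number ratio ran through both directions, with 2.44, 1.48, 0.805 and 0.377 for numbers 1 to 4. tdT-negative replicate 4, far above the other libraries for Dyrk3, was also the one with the highest summed level of stromal markers, 2234 CPM where the rest of its group had 249 to 554 CPM, and the part of this in the value was not tested. The log2 fold change was -0.67 (SE 0.87, edgeR, adjusted p = 0.780) with all libraries and 0.95 (edgeR, adjusted p = 0.426) without that library. Limma voom with all libraries gave 0.05 (adjusted p = 0.983), so the direction turned with that library and also with the method. Over 21 alternatives the adjusted p was 0.324 to 0.983.

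Rassf5, Srgap2 and Yod1 encode proteins of other kinds. Srgap2 (Entrez 14270, minus strand, 131285251 to 131527531), whose product shapes membranes and acts on Rac, was at 229, 208, 166 and 142 CPM in tdT-positive and at 206, 167, 145 and 110.5 CPM in tdT-negative replicates 1 to 4. The spread between numbers exceeded the difference, which had the same direction in all 4 numbers, with ratios of 1.11, 1.25, 1.14 and 1.29. Srgap2 rose with the block (log2 fold change 0.26, SE 0.06, edgeR, adjusted p = 0.0366), and did not pass without it (0.25, SE 0.21, adjusted p = 0.639). With library totals in the blocked fit the call was lost (adjusted p = 0.129), with a range of 0.0338 to 0.857 over 22 alternatives.

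Yod1 (Entrez 226418, plus strand, 130717327 to 130722073) encodes a deubiquitinating enzyme. It was at 6.90, 6.62, 5.12 and 8.33 CPM in tdT-positive replicates 1 to 4 and at 5.23, 4.67, 3.87 and 5.39 CPM in tdT-negative replicates 1 to 4. Only tdT-positive replicate 3 and tdT-negative replicates 1 and 4 kept the groups from separating. The ratios were 1.32, 1.42, 1.32 and 1.55, and with the block Yod1 rose (log2 fold change 0.49, SE 0.10, edgeR, adjusted p = 0.0197), against 0.49 (SE 0.18, adjusted p = 0.215) without it and adjusted p = 0.0590 with the block and library totals. Over 22 alternatives its adjusted p was 0.0163 to 0.464. Yod1 lies within the span of Pfkfb2, on the opposite strand, with exons that overlap. Pfkfb2 itself averaged 19.4 and 17.5 CPM and did not pass with the block (log2 fold change 0.18, SE 0.13, edgeR, adjusted p = 0.389).

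Rassf5 (Entrez 54354, minus strand, 131176410 to 131245178), a Ras and Rap1 effector gene, was at 35.1, 33.7, 24.4 and 26.9 CPM in tdT-positive and at 37.5, 34.6, 23.2 and 20.9 CPM in tdT-negative replicates 1 to 4. The groups overlapped throughout, and libraries of the same number were close to each other, with ratios of 0.937, 0.974, 1.05 and 1.29. Its log2 fold change was 0.05 (SE 0.21, edgeR, adjusted p = 0.944), with the block 0.07 (SE 0.09, adjusted p = 0.597), and its direction flipped with the scaling (-0.01 with library totals). An exon of Rassf5 overlaps one of Eif2d on the other strand.

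**Figure D3:**
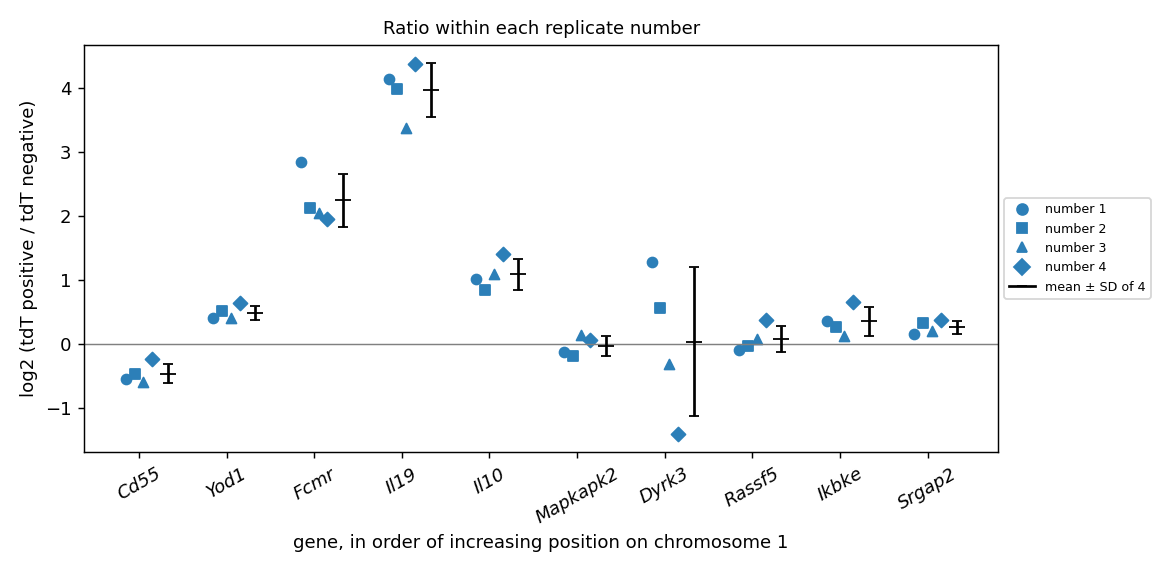
Log2 ratio of tdT-positive to tdT-negative CPM within each replicate number for the 10 genes, with the mean and SD of the 4 numbers beside the points. The ratios of Il19, Fcmr, Il10, Yod1, Ikbke and Srgap2 lie above 0 in all 4 numbers, those of Cd55 below 0, and those of Dyrk3 run from 1.28 in number 1 to -1.41 in number 4.

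Counts over the 10 genes were read against all 12610 genes tested. Without the block 1 of the 10 passed, Il19, where 0.0238% of all genes passed (0.00793% higher, 0.0159% lower). With the block 6 of the 10 were higher and 1 lower, where 15.8% of all genes passed, 8.03% higher and 7.81% lower. Of the 10, 6 were higher in 4 of 4 numbers, which held for 21.9% of all genes, and 1 was lower in 4 of 4 numbers, which held for 19.6%. The groups did not overlap for Il19 and Fcmr, both higher, where 5.47% of all genes had every tdT-positive library above every tdT-negative one and 5.91% the reverse. The median log2 fold change of the 10 genes was 0.30 with the block, beside 0.01 over all genes tested. Il19 belongs to these counts through the definition of the groups and Fcmr through the filter.

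The calls depended on which replicate number was left out. With the block and without number 1, Il19, Il10 and Fcmr passed, where 7.99% of all genes did. Without number 2, and likewise without number 3, Il19 and Il10 passed, where 2.76% and 2.8% of all genes did. Without number 4 all 7 passed, where 20.2% of all genes did, more than with all numbers.

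Within 1 Mb of either end of Il19, the counts table held 24 of the 48 genes of the RefSeq table, 10 of them the genes described and 14 others. Of the 14, 5 had too few counts to test, Il20 and Il24 among them, and 9 were tested. None of the 9 passed in edgeR without or with the block, where 0.0238% and 15.8% of all genes tested passed. At an unadjusted p under 0.05, 0 of the 9 stood out without the block, where 2058 of all 12610 genes did. With the block 4122 of the 12610 did, and 1 of the 9. That gene was Rab7b, a Rab GTPase gene of lysosomes with means of 170.8 and 151.6 CPM (a log2 fold change of 0.19 with SE 0.07, adjusted p = 0.107 with the block). Slc26a9, a chloride transporter gene, had the largest value, 0.74 (SE 0.36, adjusted p = 0.199), at 0.418 and 0.246 CPM. Among the 7 others with a mean of at least 1 CPM, namely Pfkfb2, Eif2d, Fam72a, Rab7b, Slc41a1, Rab29 and Nucks1, no log2 fold change was larger than 0.19 in either direction. Mapkapk2, the next gene after Il10, had no difference larger than its error.

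**Figure D4:**
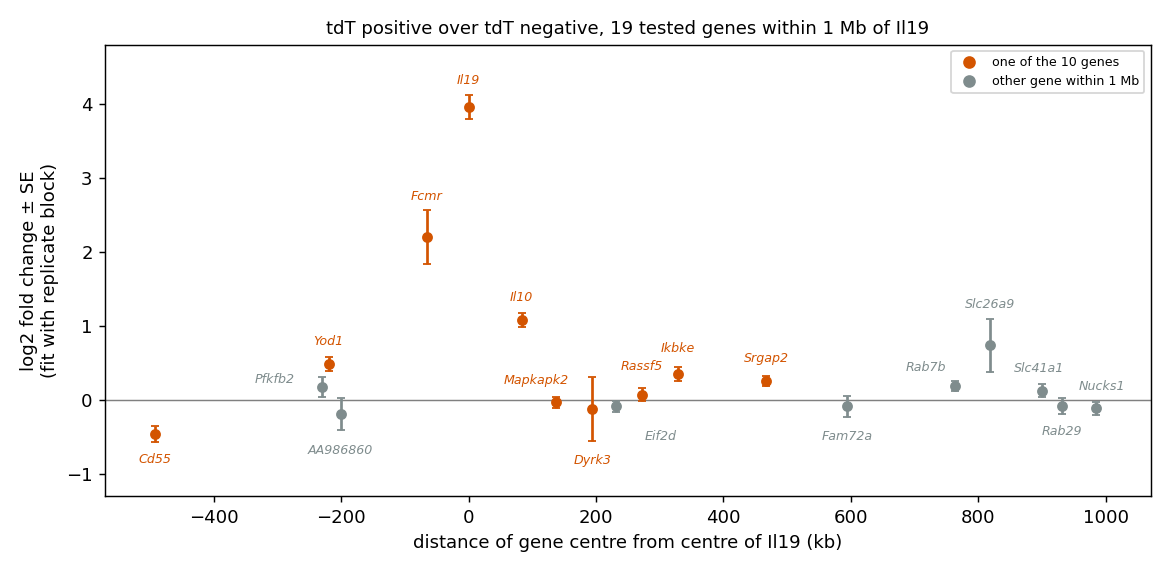
Log2 fold change with SE from the fit with the replicate block against the distance of each gene's centre from the centre of Il19 in kb, for the 19 genes tested within 1 Mb. Il19 (3.96), Fcmr (2.20) and Il10 (1.09) stand above the rest, and the other genes lie between -0.46 (Cd55) and 0.74 (Slc26a9, with an SE of 0.36).

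Per length of transcript, Il19 in the tdT-positive libraries was among the most abundant of the 10 genes. Mapkapk2 had 194 ± 10.5 CPM per kb (SD, n = 4), Il19 181 ± 35.8 and Ikbke 147 ± 22.2, and the libraries of neighbours in this order overlapped. Il10 followed with 61.2 ± 25.7 CPM per kb, below Ikbke in every library. Srgap2 came next with 23.2 ± 4.89 CPM per kb and overlapped Il10, although it was the lower one in each of the 4 libraries. Rassf5, at 8.03 ± 1.39, lay clear of both its neighbours, Yod1 (1.76 ± 0.343) and Cd55 (1.49 ± 0.727) overlapped, as did Cd55 and Dyrk3, and Dyrk3 (0.387 ± 0.242) and Fcmr (0.212 ± 0.0618) overlapped. In the tdT-negative libraries Il19 held the fifth place, with 11.7 ± 3.37 CPM per kb, between Srgap2 (19.6 ± 4.97) and Rassf5 (7.77 ± 2.19), overlapping both, and Il10 had 28.6 ± 11.0 CPM per kb.

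Receptors and signalling genes of the IL-10 family were looked up next. Of 19 genes listed, 13 were in the table and 9 tested, and with the block Il19 and Il10 were higher and the other 7 did not pass, where 15.8% of all genes passed. Il10ra averaged 174 ± 18.8 CPM (SD, n = 4, as for all values here) in the tdT-positive group and 163 ± 35.8 CPM in the other, and Il10rb 254 ± 27.0 and 244 ± 44.0 CPM. Il20rb, a subunit of the IL-19 receptor, averaged 4.14 ± 1.21 and 4.62 ± 1.79 CPM. Socs3, a STAT3 target that limits cytokine signalling, had 1196 ± 300.4 and 1051 ± 246 CPM (a log2 fold change of 0.19 with SE 0.08, edgeR with the block, adjusted p = 0.163), and Stat3 344 ± 41.0 and 296 ± 58.8 CPM (0.23, SE 0.08, adjusted p = 0.0894). The median log2 fold change of the 9 genes was 0.13 with the block.

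Of the 17 genes listed for the p38 and MK2 pathway, all were tested and 1 was higher with the block, where 8.03% of all genes were higher. That gene was Zfp36l1, which encodes an RNA-binding protein that promotes messenger RNA decay, with means of 77.7 ± 26.6 and 51.0 ± 14.7 CPM (a log2 fold change of 0.59 with SE 0.06, edgeR with the block, adjusted p = 0.00648). Mapk14, the p38-alpha gene, did not pass (0.17, SE 0.07, adjusted p = 0.124), and the median of the list was 0.06. Among 12 genes around TBK1 and IKK-epsilon, 2 were higher with the block, Ikbke and Tbkbp1, an adaptor of TBK1 (52.7 ± 4.31 and 42.9 ± 1.98 CPM, log2 fold change 0.29, adjusted p = 0.0230), and 1 was lower, Optn, an autophagy receptor gene (7.46 ± 1.10 and 9.81 ± 1.55 CPM, -0.39, adjusted p = 0.0207), where 8.03% of all genes were higher and 7.81% lower. Tbk1 itself did not pass (0.22, SE 0.08, adjusted p = 0.122), and the median of that list was 0.15. Of 5 complement regulators tested, Cd55 was lower and the other 4 did not pass, with a median of 0.01. Without the block no gene of these lists other than Il19 passed.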

How the data were processed

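Polyadenylated RNA of 8 macrophage libraries was measured. Per the labels' protocols, 220 ng of RNA went into a strand-specific TruSeq preparation. The authors deposited raw counts for each gene, beside gene lengths, and the submitters' processing notes name STAR and mm10. Nothing read here names the counting tool, its annotation or its use of strand. Columns were matched to samples by identifiers in the descriptions. No library repeated another (chi-square per degree of freedom 54.0 or more between libraries of a group).

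Genes were filtered by the default of edgeR 4.0.16 (minimum count 10, total 15), scaled by TMM and compared by its quasi-likelihood test with the group alone, and with the replicate number as a block as an alternative. P-values were adjusted by Benjamini and Hochberg over all 12610 genes, with a threshold of 0.05. They set the difference between groups against the spread between libraries of a group. With the block, the spread is that left after the replicate numbers are taken into account. Deviations from group means correlated between same-numbered libraries by 0.63, 0.28, 0.62 and 0.56, so blocked values are printed. CPM use TMM totals, and the levels per kb divide by the deposited gene length. Positions and sequences are RefSeq's for GRCm38.p6, the mm10 build, and strands and overlaps are from GENCODE M21. The test was tried on simulated data, made separately for each fit, with changed genes of mean log2 CPM 2 or higher. At a log2 fold change of 0.5, 3 of 67 changed genes were recovered without the block and 49 of 67 with it. At 1, 51 of 67 and 67 of 67 were recovered. At 2, 66 of 66 were recovered in both fits. False calls were 1 of 12327 unchanged genes without the block and 18 of 12299 with it. With the block, these 18 stood beside the 49, 67 and 66 genes recovered at the sizes 0.5, 1 and 2. Alternatives were other scalings and filters, DESeq2 1.42.0, limma 3.58.1 voom, thresholds of 0.1 and 0.01, and leaving out libraries. The text names all 10 genes, genes of the stretch at 1 CPM or more, up to 4 passing genes of each list or else its most abundant ones, and the 5 genes most like Il10 and Il19. Slc26a9 and the other list genes and markers were named after their values were seen. The genes and lists were chosen with earlier results of these data known.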

Additional observations from a re-analysis of the deposited data

Results flagged for a closer look

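Dyrk3 in the tdT-negative group stood out. Replicate 4 held 3.90 CPM and the next highest library 0.604 CPM. On the CPM scale this gap makes up 0.892 of the whole range of the group, above Dixon's 95% critical value for 4 libraries. The flag can depend on the scale, and log values were not checked. This group was 1 of 20 groups of libraries checked (10 genes in 2 groups), and chance flags about 1 in 20.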

How the results depend on the processing

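The number of genes passing, 3 without the block, was 1998 with the replicate block, 1418 with the block and library totals, 1990 with the block and DESeq2 size factors, 216 without a filter, 921 by the DESeq2 Wald test and 524 at a threshold of 0.1. Leaving out 1 library gave 2 to 456 genes (456 without tdT-negative replicate 1, 225 without tdT-negative replicate 4), and, with the block, leaving out numbers 1 to 4 gave 1023, 347, 355 and 2535. Of the 10 genes, in place of 1, 7 passed with the replicate block, 4 with the block and library totals, 7 with the block and DESeq2 size factors, and 2 without a filter, by DESeq2, or at 0.1. The count was 1 to 2 without 1 library and 3, 2, 2 and 7 with the block and without numbers 1 to 4. Il10 passed with the block (log2 fold change 1.09), with the block and library totals (1.01) and with the block and DESeq2 size factors (1.08), and in all 4 fits with the block that left out a number (1.12, 1.16, 1.08 and 0.99 without numbers 1 to 4). Il19 passed under all 22 alternatives. Fcmr passed without a filter, by DESeq2 and without tdT-negative replicate 1 as well. Rassf5, Dyrk3 and Mapkapk2, which passed in no fit, turned direction. Rassf5 had a log2 fold change of -0.00721 with library totals, -0.00296 with the replicate block and library totals, -0.0832 to 0.198 without 1 library, -0.00966 with the block without number 4, and a median within-number ratio of -0.0592 (log2) with library totals. Dyrk3 was at 0.0546 with limma voom, -1.16 to 0.951 without 1 library and 0.509 with the block without number 4. Mapkapk2 was at -0.0807 to 0.000239 without 1 library, and at 0.00379 and 0.0105 with the block without number 1 and number 2. The cause was not tested. The low counts of Fcmr, 3 to 21 a library, limit its precision.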

Other observations

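Receptor genes too low to be tested differed in their counts. Ifnlr1, which encodes the receptor chain specific to interferon lambda, had 4 counts over the tdT-positive and 90 over the tdT-negative libraries, a ratio of 0.0472 with an exact 95% interval of 0.0126 to 0.125 for counting error. The counts in replicates 1 to 4 were 0, 0, 0 and 4 against 23, 51, 15 and 1, so number 4 went the other way. Il20ra, the other subunit of the IL-19 receptor, had 2 and 17 counts, a ratio of 0.125 (exact 95% interval 0.0140 to 0.527), and 14 of the 17 came from tdT-negative replicate 4. Both were chosen after their values were seen. The tdT-negative libraries also held more transcript of stromal markers and of Fscn1 from the dendritic cell list. The part of these transcripts in the counts was not tested.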
